A study of Mus musculus with 80 samples.

Results

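The sleep-deprived and the spontaneously sleeping mice of the 6 h time point were compared across the heart transcriptome. The members were chosen by the source name of each sample, which gave 18 of the 80 animals in the series, 9 labelled 6hr SD (sleep-deprived) and 9 labelled 6hr SS (spontaneously sleeping). Total RNA of the heart was hybridised to Affymetrix Mouse Gene 1.0 ST arrays, 1 for each animal. The 21218 probe sets that carried a single gene symbol covered 18820 genes, which are described here. All animals were male C57BL/6J mice (genetic background C57BL\6 in the labels) of about 10 weeks that had been given food only in the dark phase over 14 days of acclimation, also to the experimenter's touch. Gentle handling, begun at lights-on, was used to keep the deprived animals awake for 6 h. The sleeping animals were left undisturbed and killed at the same hour. Without EEG recordings, the paper holds it very likely that some deprived mice slept briefly, and the undisturbed mice were active for part of the time. Sleep was not separated from physical rest. Both groups were killed by cervical dislocation. The remaining animals were a baseline group killed at lights-on (n = 10) and both states at 3, 9 and 12 h, and they enter here as a reference and in the shared estimate of the spread.

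A mouse kept awake during its rest phase activates the hypothalamic-pituitary-adrenal axis, and the glucocorticoid it releases acts on heart cells through a nuclear receptor that binds DNA and raises a set of target genes. Wakefulness is also known to engage molecular chaperones. In the cytosol these depend on heat shock factors that bind heat shock elements, and in the endoplasmic reticulum (ER) on the unfolded protein response, in which ATF6 and XBP1 bind the ER stress element and ATF4 acts downstream of translational arrest. The heart's own circadian clock runs on a feedback loop of ARNTL and CLOCK with the PER and CRY repressors, and several of its outputs can be shifted by body temperature, feeding and glucocorticoids.

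The values are log2 intensities after robust multi-array averaging over all heart arrays, in which a unit is a doubling. The 18 array medians ran from 5.29 to 5.37, and correlations between the arrays from 0.982 to 0.994. The 10 measured markers of ventricular cardiomyocytes had a mean level of 12.64 to 12.74 in the deprived and 12.66 to 12.75 in the sleeping mice, and none was called different. Markers of other tissues varied between animals. The 14 skeletal muscle markers averaged 7.68 in deprived mouse 4 and 5.57 to 6.23 in the other 17 animals (mouse numbers only name the samples of a group). The 11 adipocyte markers averaged 6.10 to 9.30 in the deprived and 6.00 to 8.43 in the sleeping mice, with 3 deprived mice above all sleeping ones. The 8 lung epithelium markers averaged 4.50 to 6.95 and 4.63 to 7.19, and the 11 liver markers 5.39 to 7.18 and 5.03 to 7.78. The 6 atrial cardiomyocyte markers averaged 8.86 to 10.56 in the deprived and 8.00 to 10.55 in the sleeping mice, the lowest being sleeping mouse 1. The part of these tissues in the differences described here was not tested. In bulk tissue, fewer cells of a type and less RNA per cell cannot be told apart.

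Each sample title ends in a number. The 6 h arrays lay in the third and the fourth run of these numbers, with 5 deprived and 5 sleeping arrays in the third and 4 and 4 in the fourth. Within each run all deprived arrays came before the sleeping ones. The labels do not say what the numbers stand for. If stretches of numbers were handled apart, state and handling could be separated only through the baseline arrays, of which 5 lay beside the deprived and 5 beside the sleeping arrays of the third run. These 2 sets of baseline arrays differed at 0 probe sets (limma, false discovery rate of 1%), with 1854 at an unadjusted p under 0.05. A fit with 4 stretches as blocks, linked through these arrays, kept the sign of 911 of the 916 probe sets called below, against 72.8% of all probe sets. The 916 had been called on the same arrays. Their median size was 0.24 instead of 0.31, but their median standard error rose from 0.064 to 0.111. In this fit 4 probe sets were called, and 579 of the 916 had an unadjusted p under 0.05. No baseline array lay in the fourth run, which informed this fit only on how 6 h differed from 3 h.

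At a false discovery rate of 1% (limma's moderated test, Benjamini-Hochberg over all probe sets of the array), 357 probe sets were higher and 559 lower in the sleep-deprived than in the sleeping hearts, 916 in all (2.58% of those tested). These stood for 291 symbols that rose and 442 that fell, with 0 in both directions. With 1 probe set for each gene, 727 of 18820 genes were called (3.86%), of which 291 rose (1.55%) and 436 fell (2.32%). The balance of the directions depended on the scaling, as 456 probe sets rose and 416 fell when each array was centred on its own median. Most differences were small. The median size of the called differences was 0.31 on the log2 scale, 39 probe sets rose and 30 fell by more than 1.5-fold, and 8 rose and 1 fell by more than 2-fold. The values of the 2 groups did not overlap for 233 probe sets (0.655% of those tested), of which 200 were among the called, and at the level of genes for 178 (0.946%). Of 223 probe sets called within the third run alone, 217 had the same sign in the fourth (97.3%, against 58.4% of all probe sets), and all 32 called within the fourth had the same sign in the third.

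**Figure D1:**
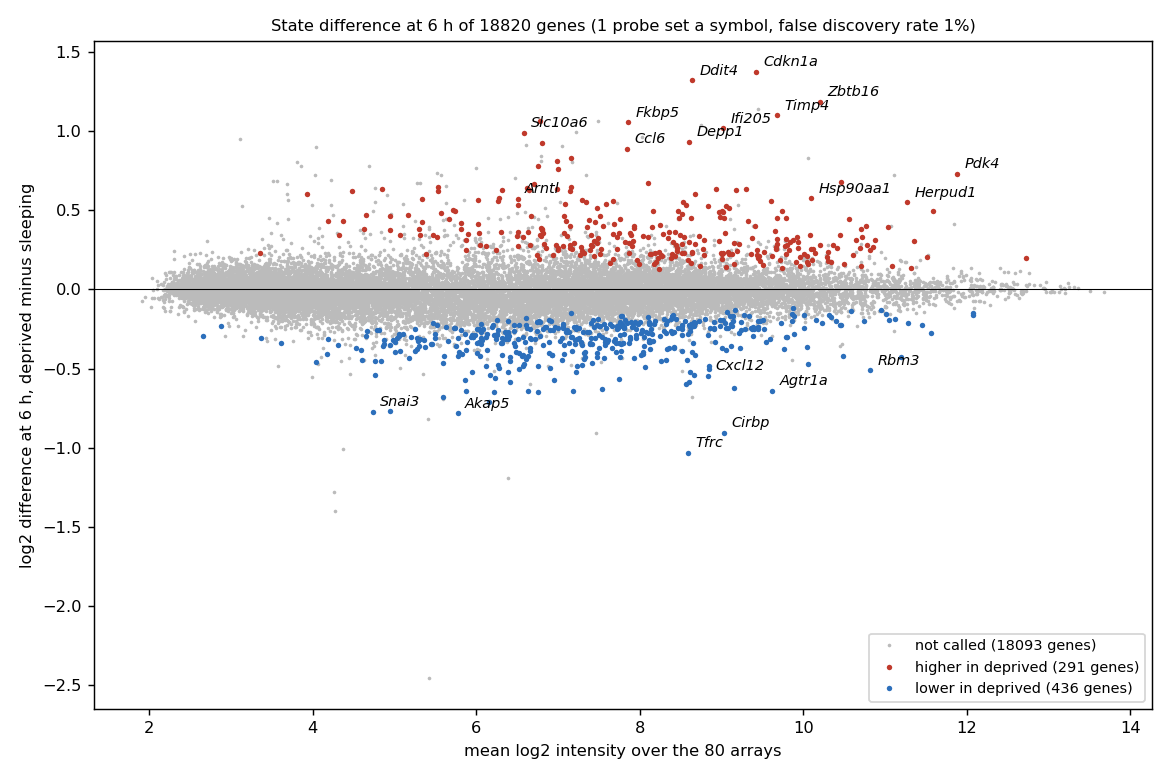
Log2 difference at 6 h (deprived minus sleeping, vertical axis) against the mean log2 intensity over 80 arrays (horizontal axis) for 18820 genes. Of the coloured points, 291 genes were higher (red) and 436 lower (blue) at a false discovery rate of 1%, and the widest called differences were those of Cdkn1a (1.38) and Tfrc (-1.03).

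The glucocorticoid receptor targets formed the group with the largest share of called genes among the 24 pathway lists. The lists were written with earlier results of these data known, so the shares are a description and no separate support. Of 28 measured members, 17 rose and 0 fell (60.7% called, against 3.86% of all genes), 27 had a positive difference, and the median was 0.45, against -0.014 over all genes. Cdkn1a, which encodes the cyclin-dependent kinase inhibitor p21, had the largest difference of all named genes. Its lowest, median and highest log2 intensities were 9.83, 10.23 and 10.70 in the 9 deprived mice and 8.44, 8.80 and 9.39 in the 9 sleeping mice. The groups did not overlap, and Cdkn1a rose by 1.38 ± 0.14 (SE) (2.59-fold, adjusted p = 4.84e-11). Zbtb16, a zinc finger repressor, stood at 10.14, 10.59 and 10.94 against 9.08, 9.46 and 9.75. These groups did not overlap either, and the difference was 1.19 ± 0.12 (2.28-fold, adjusted p = 1.01e-11). Ddit4, the inhibitor of the mTOR complex also called REDD1, ran from 8.17 to 9.56 with a median of 8.95 in the deprived mice and from 7.17 to 7.88 with a median of 7.66 in the sleeping mice. Ddit4 rose by 1.32 ± 0.14 (2.50-fold, adjusted p = 4.96e-11), again with no overlap. Fkbp5, the co-chaperone that lowers the receptor's affinity for its hormone, was more scattered. Its values were 7.11, 7.94 and 8.55 in the deprived mice, 8 of which lay above all sleeping mice, and 6.72, 7.01 and 7.23 in the sleeping mice, a rise of 1.06 ± 0.14 (2.08-fold, adjusted p = 1.64e-07).

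Other members rose by 0.31 to 1.06. Tsc22d3, the anti-inflammatory leucine zipper protein GILZ, rose by 0.64 ± 0.08 (adjusted p = 7.73e-08), Map3k6 by 0.92 ± 0.11, the sulfated steroid carrier Slc10a6 by 0.99 ± 0.12 and Fam107a by 1.06 ± 0.15. The CCAAT/enhancer binding proteins Cebpb and Cebpd rose by 0.63 ± 0.09 and 0.48 ± 0.10. Pdk4, the kinase that shuts pyruvate out of the tricarboxylic acid cycle, stood at 12.15, 12.46 and 12.64 against 11.20, 11.54 and 12.40, with 5 deprived mice above all sleeping ones and a rise of 0.73 ± 0.13 (1.66-fold, adjusted p = 3.75e-05). The remaining rises, of Errfi1, Sult1a1, Sesn1, Nfkbia, Sgk1 and Mt1, lay between 0.31 and 0.62. The call on Mt1 was lost when any of 10 single arrays was left out (adjusted p up to 0.0277). Central members that did not pass were Per1 at 0.26 ± 0.16, Klf15 at 0.20 ± 0.07 and Angptl4 at 0.51 ± 0.19.

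Set against the baseline animals, killed 6 h earlier in the day, the members with the largest differences did not all move alike. Cdkn1a, Ddit4 and Fkbp5 were lower in sleeping mice than at baseline, by 0.71 ± 0.14, 1.05 ± 0.13 and 0.67 ± 0.14 (adjusted p = 0.000336, 1.51e-08 and 0.00114). Against baseline, 0.726% of all probe sets fell and 0.813% rose in the sleeping mice, and 2.68% fell and 1.75% rose in the deprived mice. Of these 3 genes, only Cdkn1a also passed the test in the deprived mice, which were 0.67 ± 0.14 above baseline (adjusted p = 0.000379), while Ddit4 and Fkbp5 stood 0.27 ± 0.13 and 0.39 ± 0.14 from it. Zbtb16, Map3k6, Slc10a6, Fam107a and Pdk4 were higher than baseline in the deprived mice, by 1.70 ± 0.11, 1.38 ± 0.10, 1.28 ± 0.12, 1.31 ± 0.14 and 1.09 ± 0.12. In the sleeping mice Zbtb16 and Map3k6 also exceeded baseline, by 0.51 ± 0.11 and 0.45 ± 0.10. The plot of transcript levels by animal shows Cdkn1a, Ddit4, Zbtb16 and Fkbp5 among others.

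**Figure D2:**
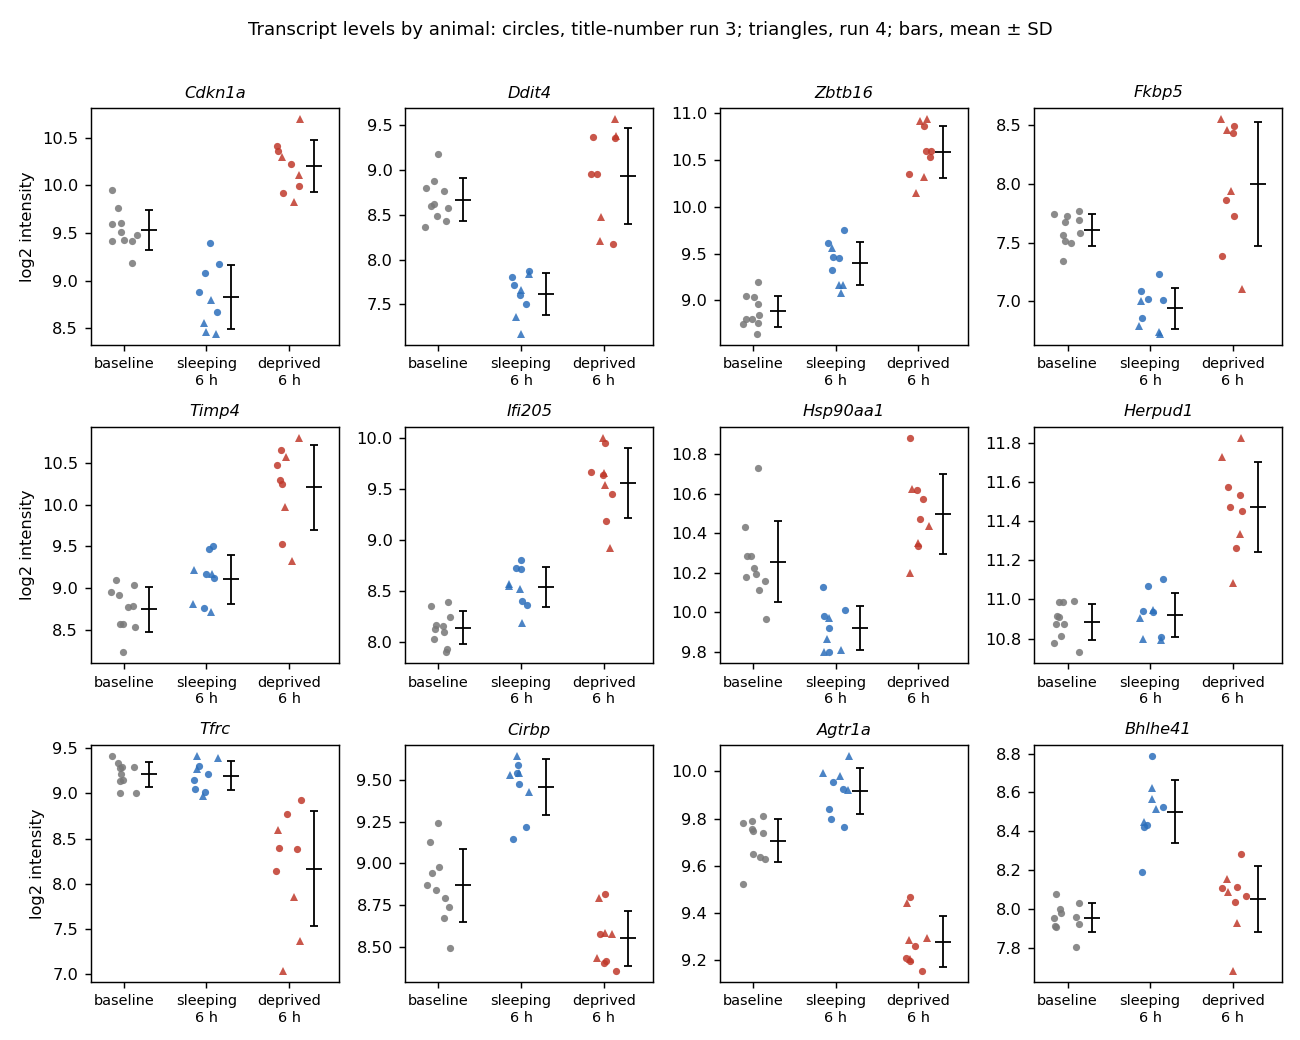
Log2 intensity of 12 transcripts (vertical axes) in each baseline (grey, n = 10), sleeping (blue, n = 9) and deprived (red, n = 9) animal, with the mean and SD beside the points. Circles are arrays of the third run of title numbers and triangles those of the fourth. Ddit4 and Fkbp5 in the deprived mice lie around or above baseline while the sleeping mice lie below it, whereas Timp4 and Ifi205 lie above baseline in the deprived mice.

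The sequence from 250 bases before to 50 after each RefSeq start site (GRCm38.p6) was searched on both strands for short binding motifs. Of 15 called glucocorticoid targets with an entry, 5 held the receptor half-site AGAACA, against 21.3% of 27025 genes with an entry. The full element, AGAACA and TGTTCT with 3 bases between them, was found in 3 genes of all, and Sgk1, the serum and glucocorticoid regulated kinase, was one of them. The stretch is shown because it carries the whole element, in capitals, upstream of one of the gene's start sites.
Sgk1 (chr10:21993671-21993745, plus strand): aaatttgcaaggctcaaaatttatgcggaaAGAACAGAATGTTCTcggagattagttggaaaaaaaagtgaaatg
Sgk1 itself rose by 0.33 ± 0.07 (1.26-fold, adjusted p = 0.00173), from 8.03, 8.39 and 8.87 in the sleeping to 8.38, 8.73 and 8.91 in the deprived mice, and its groups overlapped widely, with 1 deprived mouse above all sleeping ones. No motif match is a measurement of binding.

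A further list joined brakes on insulin and mTOR signalling with FoxO factors and their targets. Of its 24 measured genes, 6 rose and 1 fell (29.2% called), with a median of 0.14. Besides Ddit4 and Sesn1, the FoxO target Depp1 rose, with values of 8.59, 9.18 and 9.83 in the deprived and 7.96, 8.20 and 8.51 in the sleeping mice. The groups did not overlap, and the difference was 0.93 ± 0.13 (1.91-fold, adjusted p = 1.69e-07). Bcl6, a repressor that FoxO factors induce, rose by 0.54 ± 0.10, Foxo3 by 0.28 ± 0.07 and Pik3r1, the regulatory subunit of phosphoinositide 3-kinase, by 0.28 ± 0.07, while Sesn3 fell by 0.21 ± 0.05. The calls on Foxo3, Pik3r1 and Sesn3 were lost without any of 4, 4 and 5 single arrays (adjusted p up to 0.0226, 0.0131 and 0.0149). Among 21 measured cell-cycle inhibitors and p53 targets, 2 rose, Cdkn1a and Sesn1, and 1 fell, the polo-like kinase gene Plk2, by 0.33 ± 0.07 (adjusted p = 0.000452). The median of the list was 0.033.

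Chaperones of the cytosol were higher in the deprived hearts. Of 30 measured members 8 rose and 0 fell (26.7% called), with a median of 0.15, and the mean level of the list ran from 9.63 to 9.77 in the deprived and from 9.47 to 9.60 in the sleeping mice. Hsp90aa1, the inducible cytosolic HSP90, had values of 10.20, 10.47 and 10.88 in the deprived and 9.80, 9.92 and 10.13 in the sleeping mice. These did not overlap, and Hsp90aa1 rose by 0.58 ± 0.09 (1.49-fold, adjusted p = 1.6e-06). Hsph1, a nucleotide exchange factor of HSP70, stood at 8.43, 8.80 and 9.34 against 8.09, 8.28 and 8.51 and rose by 0.55 ± 0.09 (1.47-fold, adjusted p = 7.23e-06). Chordc1, an HSP90 co-chaperone, rose by 0.51 ± 0.09 with no overlap between the groups, and the HSP40 gene Dnaja1 by 0.50 ± 0.09 with 8 deprived mice above all sleeping ones. Hspa8, the constitutive HSP70, showed a small but regular rise, with 12.83, 12.87 and 12.92 against 12.59, 12.66 and 12.80, no overlap and a difference of 0.20 ± 0.03 (1.15-fold, adjusted p = 3.37e-06). St13, Ptges3 and Dnajb4 rose by 0.22 ± 0.04, 0.23 ± 0.04 and 0.33 ± 0.07. Hspb1 at 0.40 ± 0.13 and Dnajb1 at 0.17 ± 0.11 did not pass. Hsp90aa1 and Hspa8 were each read by 3 probe sets, which differed by 0.58 to 0.64 and by 0.19 to 0.21, and such sets may share signal from closely related copies. The dimmest probe sets of Dnaja1, St13 and Ptges3 differed by 0.39, 0.28 and 0.22 and did not pass (adjusted p = 0.0112, 0.0114 and 0.043). Against baseline, Chordc1 and Dnaja1 had fallen in the sleeping mice, by 0.40 ± 0.09 and 0.37 ± 0.09, and stood at 0.11 ± 0.09 and 0.12 ± 0.09 from it in the deprived mice, which did not pass.

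The core of the heat shock element, GAANNTTC, was present in the promoters of 3 of 5 called members with an entry, against 9.04% of all genes with one, and a longer form, in which another GAA follows after 2 bases, in 2 of 5, against 0.662%. The matches are shown for these 3 members, with the longer form (Chordc1, and in reverse Hsph1) or the core (Dnaja1) in capitals, in stretches of no more than 30 bases where they reach past the start site. Chordc1 holds 3 overlapping matches across its start site, in Hsph1 the match lies after the start site and in Dnaja1 before it.
Hsph1 (chr5:149636287-149636308, minus strand): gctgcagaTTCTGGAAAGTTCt
Chordc1 (chr9:18292260-18292288, plus strand): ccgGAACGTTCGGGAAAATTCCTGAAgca
Dnaja1 (chr4:40722314-40722381, plus strand): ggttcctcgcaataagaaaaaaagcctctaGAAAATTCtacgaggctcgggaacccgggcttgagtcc

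ER chaperones and genes of the unfolded protein response differed in the same direction. All 29 measured members had a positive difference, of which 9 passed the test and 0 fell (31.0% called), and the median was 0.21. Herpud1, a component of the ER-associated degradation complex, had values of 11.08, 11.47 and 11.83 in the deprived and 10.79, 10.93 and 11.10 in the sleeping mice, with 8 deprived mice above all sleeping ones and a rise of 0.55 ± 0.06 (1.47-fold, adjusted p = 1.46e-09). Creld2, a disulfide isomerase-like ER protein, stood at 8.56, 8.93 and 9.49 against 8.11, 8.49 and 8.59 and rose by 0.54 ± 0.09 (1.45-fold, adjusted p = 3.7e-05). The thiol isomerase Pdia3 rose by 0.35 ± 0.07 (adjusted p = 0.000873). The sensor Atf6 rose by 0.21 ± 0.05, and the call was lost without deprived mouse 3 or deprived mouse 7 (adjusted p up to 0.0176). Xbp1, Hsp90b1, Dnajc3, Derl3 and Sdf2l1 passed narrowly, with rises of 0.25 ± 0.06, 0.31 ± 0.08, 0.30 ± 0.08, 0.47 ± 0.12 and 0.67 ± 0.18. These 5 calls were lost without any of 10, 6, 14, 10 and 11 single arrays (adjusted p up to 0.0249, 0.0221, 0.0324, 0.038 and 0.041), and the number of members called ran from 4 to 9 over the 18 fits that left out an array. Hspa5, which encodes the master chaperone BiP, differed by 0.22 ± 0.08 (adjusted p = 0.101) and Manf, a secreted ER stress protein, by 0.46 ± 0.12 (adjusted p = 0.0133), and neither passed. Several ER members had larger differences in the third than in the fourth run: 0.71 and 0.32 for Creld2, 0.99 and 0.27 for Sdf2l1 and 0.48 and 0.10 for Hsp90b1, while Herpud1 gave 0.49 and 0.63. No test of the difference between runs was made.

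The ER stress element, CCAAT and CCACG with 9 bases between them, to which ATF6 binds together with NF-Y, was found in 4 of 8 called members with an entry and in 37 of 27025 genes (0.137%). All 4 are shown, with the element in capitals, which reads in reverse where it begins with CGTGG. Hsp90b1, the ER form of HSP90, held 2 elements.
Creld2 (chr15:88819490-88819568, plus strand): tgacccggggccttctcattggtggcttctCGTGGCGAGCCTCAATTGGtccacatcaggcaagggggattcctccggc
Derl3 (chr10:75893212-75893290, plus strand): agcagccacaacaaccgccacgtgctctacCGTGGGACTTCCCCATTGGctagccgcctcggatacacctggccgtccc
Dnajc3 (chr14:118937797-118937875, plus strand): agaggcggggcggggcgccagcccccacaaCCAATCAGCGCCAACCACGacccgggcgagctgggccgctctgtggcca
Hsp90b1 (chr10:86705503-86705686, minus strand): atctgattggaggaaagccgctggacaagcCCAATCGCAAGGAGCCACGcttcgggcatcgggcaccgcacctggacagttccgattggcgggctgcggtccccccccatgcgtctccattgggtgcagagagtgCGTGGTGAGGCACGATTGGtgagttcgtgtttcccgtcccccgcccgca
The ATF4 element TGATGCAA was found in Herpud1 and, among the ATF4 targets, in Chac1, against 1.03% of genes. Both are shown with the element, in reverse, in capitals, upstream of the start site.
Herpud1 (chr8:94386287-94386354, plus strand): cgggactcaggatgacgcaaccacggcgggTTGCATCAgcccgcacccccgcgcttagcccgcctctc
Chac1 (chr2:119351019-119351086, plus strand): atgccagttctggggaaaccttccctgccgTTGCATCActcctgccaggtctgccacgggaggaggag
Of the 21 measured genes of the ATF4 arm, 3 rose and 0 fell (14.3% called), with a median of 0.092. These were Ddit4 and Cebpb, which also belong to the glucocorticoid list, and Chac1, an enzyme that degrades glutathione, which rose by 0.54 ± 0.12 (adjusted p = 0.00163). Chac1 had values of 7.04, 7.41 and 7.91 in the deprived and 6.30, 6.96 and 7.56 in the sleeping mice, with 2 deprived mice above all sleeping ones, and exceeded baseline in both, by 1.65 ± 0.12 and 1.11 ± 0.12. Atf4 itself (0.15 ± 0.06), Atf3 (0.40 ± 0.18) and Asns (0.33 ± 0.19) did not pass.

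Tfrc, the transferrin receptor through which cells take up iron, showed the largest fall. It stood at 7.03, 8.39 and 8.93 in the deprived mice and at 8.97, 9.22 and 9.41 in the sleeping mice. Every deprived mouse lay below every sleeping one, and the fall was 1.03 ± 0.17 (2.04-fold, adjusted p = 7.98e-06). The deprived values spread over 0.64 (SD) and the sleeping values over 0.16. Tfrc fell by 0.62 and 1.54 in the third and the fourth run and by 0.65 ± 0.27 with stretches of title numbers as blocks. Against baseline, Tfrc differed by -0.02 ± 0.16 in the sleeping mice, which did not pass, and fell by 1.05 ± 0.16 in the deprived mice (adjusted p = 1.77e-06). Of the other iron and heme genes, only Hif1a, which encodes an oxygen-regulated transcription factor, passed, with 9.53, 9.62 and 9.79 against 9.83, 9.94 and 10.09, no overlap and a fall of 0.30 ± 0.05 (1.23-fold, adjusted p = 2.01e-05). The heme oxygenase gene Hmox1 (0.49 ± 0.14, adjusted p = 0.0182) and the heme synthesis gene Alas1 (-0.26 ± 0.07, adjusted p = 0.0104) did not, and the median of the 23 measured members was 0.012.

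Cirbp and Rbm3, the cold-inducible RNA-binding proteins, were lower in the deprived hearts, while the list they belong to was divided. Of its 11 measured members 4 fell and 1 rose (45.5% called), 5 had a positive and 6 a negative difference, and the median was -0.039. Cirbp, whose transcript rises as body temperature falls, had values of 8.36, 8.58 and 8.82 in the deprived and 9.15, 9.53 and 9.64 in the sleeping mice. No deprived mouse reached the sleeping range, and Cirbp fell by 0.90 ± 0.11 (1.87-fold, adjusted p = 2.89e-09). Rbm3, the other classic cold-shock protein, stood at 10.39, 10.51 and 10.78 against 10.97, 11.08 and 11.21 and fell by 0.51 ± 0.06 (1.42-fold, adjusted p = 5.86e-09), and its 3 probe sets gave falls of 0.47 to 0.51. Rbmx, a nuclear RNA-binding protein, fell by 0.45 ± 0.07 with no overlap and the splicing factor Srsf5 by 0.44 ± 0.10, while Tra2a rose by 0.34 ± 0.08, a call lost without any of 9 single arrays (adjusted p up to 0.0186) and not shared by its second probe set (0.082). The falls were alike in the third and the fourth run, 0.88 and 0.94 for Cirbp and 0.55 and 0.46 for Rbm3. Relative to baseline, Cirbp and Rbm3 had risen in the sleeping mice, by 0.59 ± 0.10 and 0.25 ± 0.06, and Rbm3 had fallen in the deprived mice, by 0.26 ± 0.06, whereas Cirbp stood at -0.32 ± 0.10 there (adjusted p = 0.0378). Body temperature was not among the measurements used here.

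Of 20 measured clock genes, 1 rose and 6 fell (35% called). Arntl, the positive arm also called Bmal1, was the one that rose. It stood at 6.97, 7.27 and 7.97 in the deprived and 6.41, 6.75 and 6.93 in the sleeping mice, with no overlap and a difference of 0.57 ± 0.10 (1.49-fold, adjusted p = 7.36e-05). Both groups lay well under the baseline mean of 8.32 ± 0.04 (SD, n = 10), by 1.03 ± 0.10 and 1.60 ± 0.10. The repressors Bhlhe41 and Bhlhe40 (DEC2 and DEC1) fell by 0.45 ± 0.08 and 0.39 ± 0.09. Bhlhe41 had values of 7.68, 8.09 and 8.29 against 8.19, 8.51 and 8.79, with 8 deprived mice below all sleeping ones. The output factor Hlf fell by 0.43 ± 0.08 with no overlap (adjusted p = 0.00017). Cry2 fell by 0.28 ± 0.06, Per3 by 0.47 ± 0.11 and the repressor Ciart, also called CHRONO, by 0.63 ± 0.16. Between baseline and 6 h, Per3, Ciart and Bhlhe40 rose in both states, by 1.04 ± 0.11, 0.79 ± 0.16 and 0.55 ± 0.08 in the deprived and by 1.51 ± 0.11, 1.42 ± 0.16 and 0.93 ± 0.08 in the sleeping mice. Arntl in both states thus had moved down and these 3 genes up over the 6 h, and the deprived mice stood nearer to baseline for each. The call on Bhlhe40 was lost without deprived mouse 4 (adjusted p = 0.0102), that on Per3 without deprived mouse 1 or deprived mouse 6 (up to 0.0149), and that on Ciart without any of 11 single arrays (up to 0.0398). Per1 (0.26 ± 0.16) and Per2 (0.18 ± 0.11) did not pass. Where the clock acts on its targets, CLOCK and ARNTL bind the E-box CACGTG and HLF the D-box TTATGTAA. The first was found in 2 of 5 lower members with an entry and in 8.09% of all genes, and the second in 1 of 5 and in 1.11%. The promoters of Ciart, with 3 E-boxes upstream of its start, and of Per3, with 2 D-boxes, are shown with these in capitals.
Ciart (chr3:95882237-95882374, minus strand): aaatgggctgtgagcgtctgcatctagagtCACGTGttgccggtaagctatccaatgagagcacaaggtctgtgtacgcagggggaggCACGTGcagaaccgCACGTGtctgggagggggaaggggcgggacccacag
Per3 (chr4:151044786-151044900, minus strand): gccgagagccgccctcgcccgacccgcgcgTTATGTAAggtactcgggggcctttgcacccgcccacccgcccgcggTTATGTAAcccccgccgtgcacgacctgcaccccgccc

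Immediate early genes differed in both directions. Of 27 measured members, 4 rose and 2 fell (22.2% called). Ccn2, a matricellular protein and target of the Hippo pathway, stood at 10.36, 10.80 and 10.93 in the deprived and 9.69, 10.05 and 10.31 in the sleeping mice and rose by 0.68 ± 0.09 with no overlap (1.60-fold, adjusted p = 1.57e-07). The transcription factor Myc, at 6.31, 6.88 and 7.18 against 5.84, 6.17 and 6.27, rose by 0.63 ± 0.12 and did not overlap either. Maff rose by 0.56 ± 0.12 and Klf6 by 0.23 ± 0.05, the latter call being lost without any of 5 single arrays (adjusted p up to 0.0134). Egr1, a factor induced within minutes of a stimulus, had values of 6.18, 6.78 and 7.12 against 6.74, 7.44 and 7.77, with 4 deprived mice below all sleeping ones, and fell by 0.65 ± 0.13 (1.57-fold, adjusted p = 0.000574). With stretches of title numbers as blocks its difference was -0.20 ± 0.24, and the baseline arrays beside the deprived arrays differed from those beside the sleeping ones by -0.39. Ier2 fell by 0.45 ± 0.08, and Fos, at -0.45 ± 0.13, did not pass (adjusted p = 0.0227).

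Several receptors and ion channels of cardiac cells were lower after sleep deprivation. Agtr1a, the type 1a angiotensin II receptor, had values of 9.15, 9.26 and 9.47 in the deprived and 9.77, 9.92 and 10.07 in the sleeping mice. The groups did not overlap, and the fall was 0.64 ± 0.06 (1.56-fold, adjusted p = 7.57e-12), with 0.60 and 0.69 in the 2 runs. Akap5, an anchor of protein kinase A, stood at 5.07, 5.54 and 5.85 against 5.92, 6.35 and 6.51 and fell by 0.78 ± 0.13 (1.72-fold, adjusted p = 9.41e-06). Its deprived values lay near the array medians of 5.29 to 5.37, a low level. The alpha-1B adrenergic receptor gene Adra1b fell by 0.36 ± 0.07 with no overlap, whereas the phosphodiesterase gene Pde7a, at 9.15, 9.31 and 9.56 against 8.65, 8.82 and 8.96, rose by 0.53 ± 0.06 (1.44-fold, adjusted p = 8.52e-11) and the adenylyl cyclase gene Adcy6 by 0.26 ± 0.05. These were the 2 higher and 3 lower of 21 measured genes of cAMP and adrenergic signalling (23.8% called). Aplnr, the apelin receptor, was outside the list and fell by 0.59 ± 0.14, a call lost without deprived mouse 8, deprived mouse 9, sleeping mouse 2 or sleeping mouse 8 (adjusted p up to 0.0204). Among 22 measured genes of the cardiac action potential 1 rose and 4 fell (22.7% called), 19 had a negative difference, and the median was -0.11. Kcna5, the channel of the ultrarapid potassium current, stood at 6.67, 7.06 and 7.38 against 6.14, 6.42 and 6.52 and rose by 0.64 ± 0.08 with no overlap (1.56-fold, adjusted p = 1.04e-08). Kcnh2, the channel of the rapid delayed rectifier current, had values of 8.42, 8.59 and 8.81 against 8.82, 8.97 and 9.09 and fell by 0.33 ± 0.06 with no overlap, and the gap junction gene Gja1 fell by 0.27 ± 0.05. Rnf207, a ring finger protein known from rabbit heart cells to regulate this channel, stood at 8.25, 8.32 and 8.44 against 8.71, 8.97 and 9.06 and fell by 0.59 ± 0.06. Kcnd2 and Kcnq1 fell by 0.24 ± 0.06 and 0.22 ± 0.06, with calls lost without any of 4 and 12 single arrays (adjusted p up to 0.0172 and 0.0235).

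Chemokines differed in both directions. Of 28 measured genes of acute inflammation, 4 rose and 1 fell (17.9% called), with a median of -0.016. Ccl6 and Ccl9, a pair of neighbouring mouse chemokines made by myeloid cells, rose the most. Ccl6 stood at 8.09, 8.43 and 8.65 in the deprived and 7.19, 7.43 and 8.06 in the sleeping mice and rose by 0.89 ± 0.11 (1.85-fold, adjusted p = 1.54e-08). Ccl9 stood at 7.26, 7.61 and 7.74 against 6.46, 6.68 and 7.03 and rose by 0.81 ± 0.10 (1.76-fold, adjusted p = 5.42e-09), and neither gene overlapped between the groups. Cxcl12, the chemokine made by stromal and endothelial cells, stood at 8.41, 8.62 and 8.87 against 9.03, 9.15 and 9.33 and fell by 0.54 ± 0.05 (1.46-fold, adjusted p = 2.28e-11), also with no overlap. The acute phase gene Serpina3n rose by 0.47 ± 0.12, a call lost without any of 14 single arrays (adjusted p up to 0.0338). Ifi205, of the p200 family of interferon-inducible genes, ran from 8.92 to 10 in the deprived and from 8.18 to 8.80 in the sleeping mice and rose by 1.02 ± 0.11 (2.03-fold, adjusted p = 4.96e-11), whereas 0 of the other 21 measured interferon-stimulated genes passed. The family holds near-identical copies, so that its members may share signal. The membrane genes Ms4a6c and Ms4a6b, which macrophages express, rose by 0.83 ± 0.12 and 0.67 ± 0.09, with the same reservation on near-identical copies. Of 10 measured macrophage and monocyte markers, only the scavenger receptor Cd163, itself raised by glucocorticoid, passed, with 6.33, 6.57 and 7.53 against 5.99, 6.19 and 6.48 and a rise of 0.53 ± 0.09 (1.45-fold, adjusted p = 2.85e-05). The mean level of these 10 markers ran from 6.84 to 7.26 in the deprived and from 6.92 to 7.13 in the sleeping mice. Their part in the rise of the chemokines was not tested.

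In the matrix, Timp4, an inhibitor of metalloproteinases that is abundant in the heart, stood at 9.32, 10.30 and 10.80 against 8.71, 9.17 and 9.50. Of the deprived mice 8 lay above all sleeping ones, and Timp4 rose by 1.10 ± 0.14 (2.15-fold, adjusted p = 1.99e-08). Timp3 rose by 0.26 ± 0.05 (adjusted p = 0.000531). P4ha1, the catalytic subunit of collagen prolyl hydroxylase, stood at 9.27, 9.70 and 9.89 against 8.88, 9.01 and 9.15, with no overlap and a rise of 0.64 ± 0.07 (1.56-fold, adjusted p = 1.71e-09). The collagen cross-linking enzyme Lox rose by 0.42 ± 0.10 and the proteoglycan Lum fell by 0.25 ± 0.06, with calls lost without any of 6 and 8 single arrays (adjusted p up to 0.0192 and 0.0302). On the matrix list, which does not hold Timp4 or Timp3, 2 of 27 measured genes rose and 1 fell. The collagen genes on the list did not pass. Of the natriuretic peptides and stress genes, only the Timp genes passed of 20 measured, and Nppa (0.12 ± 0.12) and Nppb (0.31 ± 0.18) did not.

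Other transcripts that ranked by size included regulators of transcription. Rcor2, a corepressor partner of the histone demethylase LSD1, stood at 5.13, 5.23 and 5.53 in the deprived and 5.72, 5.86 and 6.32 in the sleeping mice and fell by 0.68 ± 0.09 with no overlap (1.60-fold, adjusted p = 3.56e-08). Tet1, which oxidises methylated cytosine, was read by 3 probe sets, all called, with falls of 0.53 to 0.66. The factors Snai3 and Sox4 fell by 0.77 ± 0.14 and 0.65 ± 0.14. Pla2g4e, a phospholipase A2, fell by 0.71 ± 0.09 with 5.41, 5.67 and 5.91 against 6.10, 6.40 and 6.54, Cstad by 0.77 ± 0.09, the muscle protein gene Ky by 0.64 ± 0.09, the kinase gene Map2k6 by 0.58 ± 0.09, Fam78a by 0.64 ± 0.09, the actin-severing protein gene Scin by 0.57 ± 0.10 and the cardiac growth factor gene Fgf16 by 0.62 ± 0.09. The deprived values of Rcor2 and Pla2g4e lay near the array medians of 5.29 to 5.37, a low level. Snai3 stood under these medians in sleeping mouse 1 (4.22). Of the rises, Arrdc2, an arrestin-like protein, stood at 5.66, 7.10 and 7.82 against 5.90, 6.18 and 6.71, a difference of 0.78 ± 0.16 (adjusted p = 0.000651) with 1 deprived mouse below all sleeping ones. Rasgef1b, a guanine nucleotide exchange factor, rose by 0.76 ± 0.11 and Tnfrsf12a, the receptor of the cytokine TWEAK, by 0.65 ± 0.13. Ginm1 fell by 0.61 ± 0.12 at the probe set that ranked, but its brighter probe set showed -0.016.

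Other lists had few or no called members. Among 23 genes of glucose transport and glycolysis and 29 of the respiratory chain and ATP synthase, 0 were called in either direction, and at an adjusted p of 0.0196 the glycolytic gene Pgam1 came nearest in the first (0.29 ± 0.08). Of 25 fatty acid genes only Pdk4 passed, of 22 cholesterol synthesis genes only Hsd17b7 (a fall of 0.41 ± 0.07) and of 39 DNA repair genes only the glycosylase gene Ogg1 (a fall of 0.27 ± 0.06, with no overlap between the groups), though 30 of the 39 had a negative difference. Of 15 genes of purine synthesis and one-carbon metabolism 2 fell (13.3% called), Ppat, the first committed enzyme of the pathway, by 0.43 ± 0.07 with no overlap, and Mthfd1l by 0.31 ± 0.07, a call lost without deprived mouse 5, sleeping mouse 2 or sleeping mouse 6 (adjusted p up to 0.0146). The glutathione synthesis gene Gclm rose by 0.49 ± 0.08. Of the endothelial markers a larger share was called, with 3 of 12 higher, among them Flt1 by 0.20 ± 0.04 and Esam by 0.23 ± 0.05, and 1 lower (33.3% called), but the median was 0.036. No marker of atrial or ventricular cardiomyocytes, smooth muscle, neutrophils, B cells, T and NK cells, erythroid cells, adipocytes, skeletal muscle, lung or liver passed. At an unadjusted p under 0.05, 5783 probe sets of the array differed. The adipocyte list had a median of 0.80, its largest difference being 0.996 ± 0.48 for Cidec (adjusted p = 0.275), and the part of fat in the rises above was not tested. Without deprived mouse 4, which carried the skeletal muscle signal, 327 probe sets rose and 510 fell, and without sleeping mouse 1, the lowest in atrial markers, 333 rose and 647 fell.

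**Figure D3:**
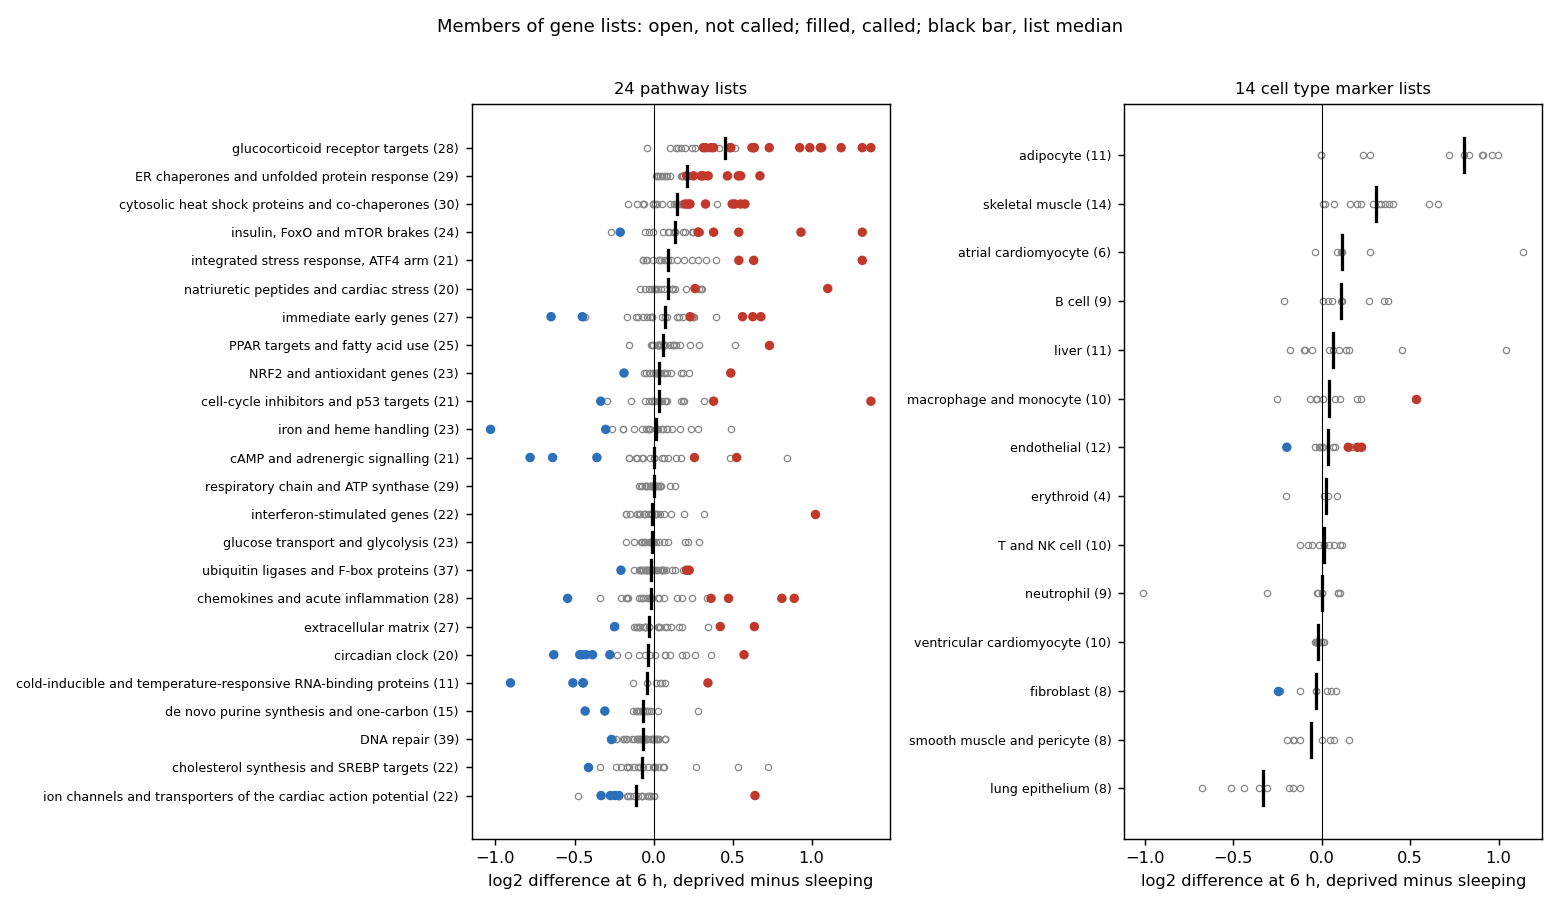
Log2 difference at 6 h (deprived minus sleeping, horizontal axes) of the measured members of 24 pathway lists (left) and 14 cell type marker lists (right), ordered by list median (black bars), with the number measured in brackets. Filled points passed a false discovery rate of 1% (red higher, blue lower). The glucocorticoid list has 17 called members and a median of 0.45, while the adipocyte list has a median of 0.80 and 0 called members.

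The differences in the 2 runs and in the fit with blocks were computed for every called probe set among the named genes and list members. All had the same sign in both runs and with blocks, 90 kept their call whichever single array was left out and the other 27 did not, and 42 did not overlap between the groups. The size in the fourth run exceeded that in the third by more than 1.5 times for 32 and the reverse held for 16. The value with blocks takes its level from the third run and its baseline arrays, so it is not separate from the comparison of runs. With blocks, 20 of these probe sets shrank by more than 1.5 times, those of Tfrc, Egr1, Aplnr, Fbxw7, Fgf16, Foxo3, Gclm, Hif1a, Kcnd2, Kcnq1, Lox, Pecam1, Scin, Serpina3n, Sox4, Timp3, Tsc22d3, Zbtb16 (to 0.75 ± 0.20), Cebpb (to 0.31 ± 0.15) and Maff (to 0.27 ± 0.20). The 1 that grew by as much was that of Mthfd1l (to -0.60). Cdkn1a, Ddit4, Ifi205 and Cirbp were at 1.22 ± 0.25, 1.20 ± 0.25, 1.03 ± 0.19 and -0.88 ± 0.19.

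**Figure D4:**
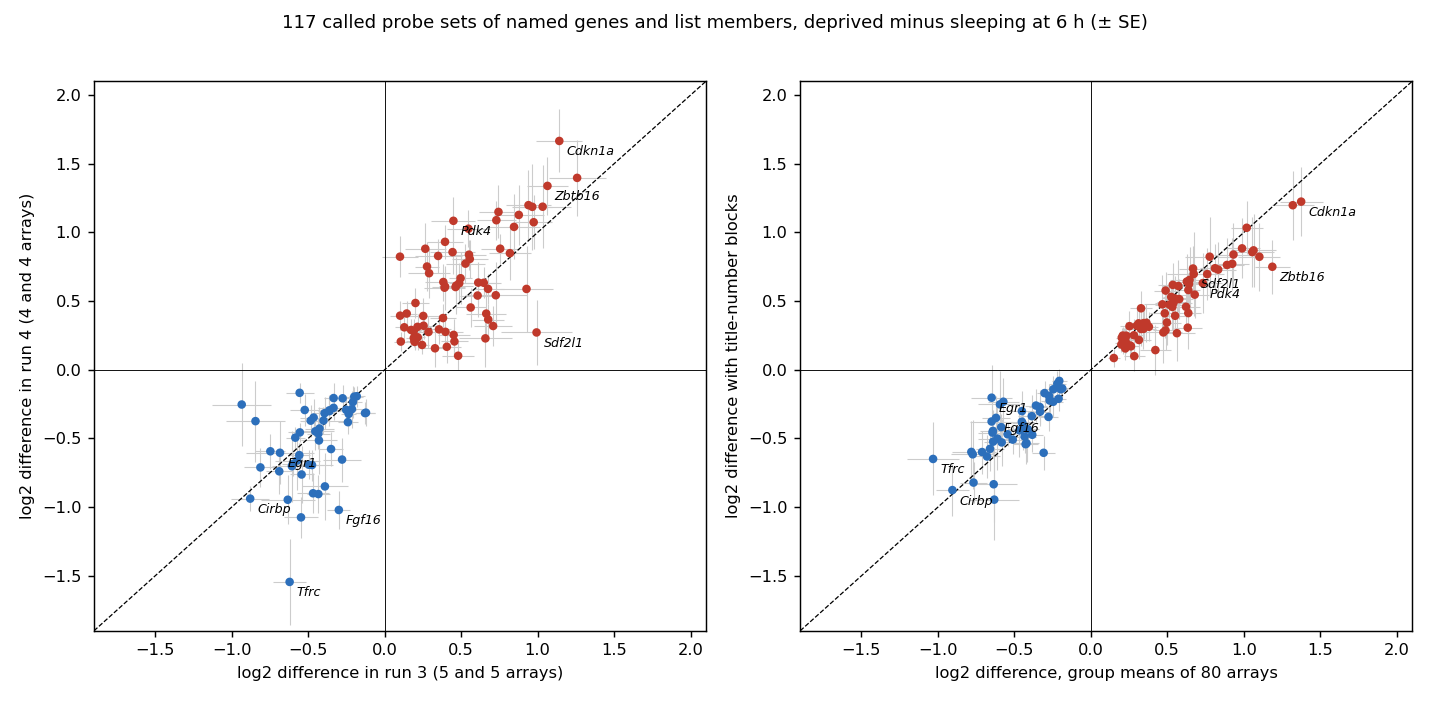
Log2 differences at 6 h (deprived minus sleeping, with SE) of the called probe sets of named genes and list members. Left, the third run (horizontal axis, 5 and 5 arrays) against the fourth (vertical axis, 4 and 4 arrays). Right, the fit of group means (horizontal axis) against the fit with 4 stretches of title numbers as blocks (vertical axis). All points lie in the quadrants of equal sign, and the dashed line marks equal values. The probe sets were called on these same arrays.

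The 6 h differences were then set beside those at 3, 9 and 12 h, where each time had sleeping animals of its own. At these times 565 (1.59%), 1176 (3.31%) and 1114 (3.13%) probe sets were called. Of the 916 called at 6 h, 870 had the same sign at 3 h (95%, against 54.6% of all probe sets), 890 at 9 h (97.2%, against 60.1%) and 791 at 12 h (86.4%, against 54.1%). The median size in the 6 h direction was 0.19 at 3 h, 0.22 at 9 h and 0.14 at 12 h, and 66 probe sets of 55 symbols were called at all 4 times. At 3, 9 and 12 h 0.835%, 1.60% and 1.44% of all probe sets were higher and 0.754%, 1.71% and 1.69% lower. These shares are of probe sets, while the list counts that follow are of genes, with 1 probe set each. At 6 h, 2.58% of probe sets and 3.86% of genes were called. Of the 28 glucocorticoid targets, 12 were higher at 3 h, 17 at 9 h and 5 at 12 h. At 12 h 1 was lower, and the medians were 0.30, 0.54 and 0.11. Of the 29 ER members, 12 were higher at 3 h, 3 at 9 h and 2 higher and 1 lower at 12 h. Of the 11 members of the cold-inducible list, 4, 5 and 6 were lower. Of the 30 heat shock members, 10 were higher at 3 h, 3 higher and 2 lower at 9 h and 1 higher at 12 h.

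The difference at 6 h departed from the mean of the other times at 4 probe sets (0.0112%, with 4156 at an unadjusted p under 0.05), all at an adjusted p of 0.00999. Ddit4 differed more at 6 h, by 0.85 ± 0.16. Its rises were 0.60 at 3 h, 1.32 at 6 h and 0.97 at 9 h, with -0.17 at 12 h. Pde7a differed more by 0.35 ± 0.06, with rises of 0.44 and 0.53 at 3 h and 6 h and values of 0.08 and 0.02 later. Lhx6, a LIM homeobox factor, and Pirt, a membrane protein known from sensory neurons, departed downwards, by -0.46 ± 0.08 and -0.51 ± 0.10, and were -0.06 and -0.39 at 3 h and -0.38 and -0.42 at 6 h but 0.31 and 0.41 at 12 h. These 4 calls lay at the threshold, and 0 to 3 probe sets were called when single arrays of the 6 h groups were left out. Against 3 h, whose arrays of both states lay in the same 2 runs, 0 probe sets were called (0.00%, limma), with 4093 at an unadjusted p under 0.05. Against 9 h alone 2 (0.00562%) were called and against 12 h alone 0.298%.

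**Figure D5:**
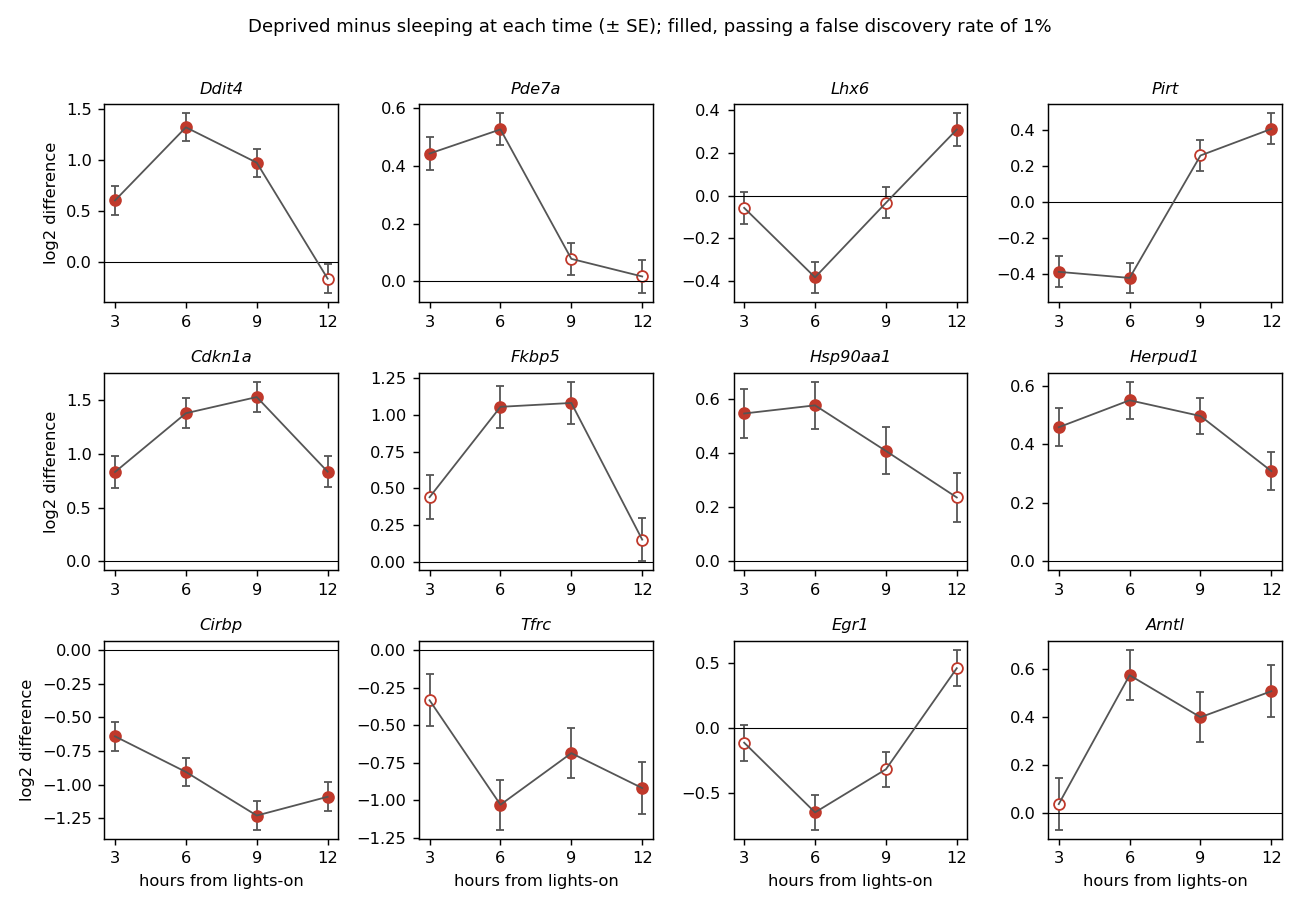
Log2 difference between deprived and sleeping mice (vertical axes, with SE) at 3, 6, 9 and 12 h after lights-on (horizontal axes) for 12 transcripts. Filled points passed a false discovery rate of 1% at that time. The value of Ddit4 is largest at 6 h (1.32), Cdkn1a and Herpud1 are filled at all 4 times, and Egr1 is filled at 6 h alone. Between the differences at 6 h and 3 h, 0 probe sets were called.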

How the data were processed

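Hearts of 80 male mice were assayed on Affymetrix Mouse Gene 1.0 ST arrays. Per the labels and the study's methods, the authors read the probe intensities with the oligo package and summarised them by robust multi-array averaging (RMA) to 1 log2 value for each probe set and array. The deposited value table holds these log2 values without their decimal points (a unit named as other here). The point was put back after 2 digits where a string began with 10 to 13 (173798 of 2844480 values) and after 1 digit elsewhere, and 1 ambiguous value was placed with the remaining arrays of that probe set. The restored values ran from 1.38 to 13.8.

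Groups were taken from the source names. A linear model of 9 group means was fitted over 80 arrays with limma 3.58.1 in R 4.3.3, with empirical Bayes moderation, Benjamini-Hochberg adjustment over all probe sets and a false discovery rate of 1%. The state difference at 6 h was tested against that at the other times as an interaction in the same model. Gene symbols came from the platform annotation, 1 for 21218 probe sets, several for 1881 (not named) and none for 12457. For lists and counts of genes, the probe set with the highest mean stood for its symbol. The scripts were tested on simulated data first.

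The members and the lists were chosen with earlier results of these data known, and no list was given a p-value. Named were the 20 genes with the largest difference in each direction, up to 4 called members of each pathway list and 3 of each cell type list by p, all called clock and cold-inducible members, and the genes called in the interaction. Predicted genes, small RNAs and olfactory and vomeronasal receptors were counted but not named. Further called members of the lists, and genes such as Pgam1 and Cidec that did not pass, were named after their values were seen. Arrays count no molecules, so that the number of arrays limits the precision. Other arrays in the fit, batch terms, filters, scalings, weights and the leaving out of each array were tried as alternatives. The arrays' scanner files were not used here.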

Additional observations from a re-analysis of the deposited data

Results flagged for a closer look

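Of 182 sets of 9 values (91 genes in each group), 7 held a value set apart from the others by Dixon's criterion, which chance alone does in about 1 in 20. Sleeping mouse 1 was the lowest of its group for Creld2 (8.11, the next being 8.36), Scin (5.43, then 6.15) and Snai3 (4.22, then 4.79), 3 of the 7, and it also had the lowest mean of the 6 atrial cardiomyocyte markers (8.00). Sleeping mouse 4 was the highest for Slc10a6 (6.71, then 6.18). Among the deprived mice, mouse 6 was the highest for Arntl (7.97, then 7.44), mouse 9 the lowest for Hsd17b7 (8.02, then 8.33) and mouse 7 the lowest for Ky (5.67, then 6.24). The calls on these 7 genes were kept without the array concerned.

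The difference between the states at 6 h departed from the mean difference at 3, 9 and 12 h for 4 genes by the interaction test, Ddit4 (0.85) and Pde7a (0.35) upwards and Lhx6 (-0.46) and Pirt (-0.51) downwards. The 9 h and 12 h animals lie in other runs of title numbers than the 6 h animals, and the share of this in the result was not tested. Against 3 h alone, in the same runs, the adjusted p did not pass for any probe set.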

How the results depend on the processing

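All called differences of the named genes and list members kept their sign under every alternative run. They had been called on the same arrays, so agreement in sign was largely fixed in advance. The counts of probe sets higher and lower (357 and 559) became 198 and 322 with the 18 arrays of 6 h alone, 2 and 2 with 4 stretches of title numbers as blocks, and 673 and 1122 at a false discovery rate of 5%. Of 916 called in all, the count became 223 within the third run and 32 within the fourth. With fewer arrays or more terms, standard errors are wider by construction. When each array was left out in turn, 284 to 369 were higher and 432 to 647 lower, with 284 and 497 without deprived mouse 7. The counts stayed within 1.5 times under the other alternatives, with 473 and 833 under array weights, and the split was 456 to 416 with arrays centred on their medians.

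The 4 probe sets called against the other times became 7 with runs as a block, 7 with 1 probe set per symbol, 8 with array weights, 14 at a false discovery rate of 5%, and 0 with centred arrays, repeated quantile normalisation, trended robust shrinkage or no shrinkage. Against 9 h alone 1 was higher and 1 lower, and against 12 h alone 46 and 60. Leaving out single arrays gave 0 to 3. Against 3 h, where 0 were called, 1 was called within the third run and 1 without shrinkage. The comparison with the other times could not be estimated with the 4 stretches as blocks and was not run so. No paired analysis was possible because replicate numbers only name the animals of a group, and each animal gave 1 heart in 1 state.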
